A study of Mus musculus with 2 samples.

Results

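Cholesterol and fatty acid metabolism was represented by 37 named genes, all of which had a row among the 54532 gene rows of the count table. The genes were picked by a rule on symbol and place in these pathways, not on measured values. That rule was chosen with earlier results of these data known. Each of the genes matched 1 row by symbol. They cover the mevalonate steps (6 genes), the steps from squalene to cholesterol (8), control of the sterol regulatory element binding proteins, or SREBPs (4), cholesterol efflux (2), fatty acid synthesis (3), desaturation (4), elongation (3) and mitochondrial fatty acid oxidation (7). The 2 libraries hold RNA from CD4-positive BDC-2.5 effector T cells, all made to carry 1 transgenic receptor specific for an antigen of pancreatic beta cells. The cells were activated, transferred into NOD.scid mice, a strain that lacks mature T and B lymphocytes, and sorted 6 days later from spleen and lymph nodes as cells without the GFP reporter of Foxp3, so that regulatory T cells were left out. In the 2.5HIP-PLG group the recipients had been given 1.75 mg of 2.5HIP-PLG nanoparticles into a vein 1 day after the transfer. In the untreated group they had not. Each group is a pool of 4 mice and 1 library.

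Cells make cholesterol from acetyl-CoA through mevalonate and squalene. When sterols are scarce, SCAP escorts the SREBP factors out of the endoplasmic reticulum to be cut and released, and INSIG proteins hold them back when sterols are plentiful. Surplus cholesterol is exported by the ABC transporters ABCA1 and ABCG1. Fatty acids are built in the cytosol, then lengthened and desaturated, and they are burned in mitochondria after CPT1A has loaded them onto carnitine. Dividing effector T cells are known to use the synthetic routes to build membrane, and memory and regulatory T cells are known for fatty acid oxidation.

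Of these genes 33 of 37 differed by less than the 1.5-fold threshold set below. Lower past that threshold in the 2.5HIP-PLG library were Cpt1a, the gate to mitochondrial fatty acid oxidation, and Abca1. Higher past it were the desaturase gene Scd2 and the mevalonate pathway gene Pmvk. Acadl, another oxidation gene, was higher but just short of the threshold, at a ratio of 1.497. Apart from Pmvk, the cholesterol synthesis genes among the 37 stayed between ratios of 0.790 and 1.39. Of 7 further sterol synthesis enzymes listed below, 1 was lower past the threshold, Acat2 at a ratio of 0.444, and 0 were higher past it. A ratio here is 2.5HIP-PLG over untreated, from counts scaled by each library's total, and its exact 95% interval reflects counting error alone. With 1 library per group there is no replicate check and no test across samples, and the values describe these libraries. Fewer cells of a kind and less RNA per cell cannot be told apart in such bulk samples.

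A gene was called higher at a ratio of at least 1.5 with an interval above 1, and called lower at a ratio of at most 0.667 with an interval below 1. All 37 genes passed the filter of at least 20 counts over both libraries. Of them 2 were called higher (Pmvk and Scd2), 2 were called lower (Abca1 and Cpt1a) and 33 were neither. Among all 13902 measured genes 5.15% were called higher and 9.7% lower. Among 8328 protein-coding genes with at least 500 counts, 2.92% were called higher and 3.6% lower. With 2 of 37 genes called each way, no difference from these shares is read, and the calls are read below as single genes. Smaller differences were common. The interval lay above 1 for 16 of the 37 genes, below 1 for 9, and held 1 for 12. As shares of the 37 genes these are 43.2% above and 24.3% below. Over all measured genes the interval lay above 1 for 24.3% and below 1 for 26.3%, and over the protein-coding genes with at least 500 counts, where intervals are narrower, for 32.0% (above) and 28.03% (below). The median log2 ratio was 0.10 over the 37 genes and -0.01 over all measured genes, and 27 of the 37 ratios (73.0%) lay between 0.8 and 1.25, against 64.5% of all measured genes and 80.4% of the protein-coding genes with at least 500 counts.

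**Figure D1:**
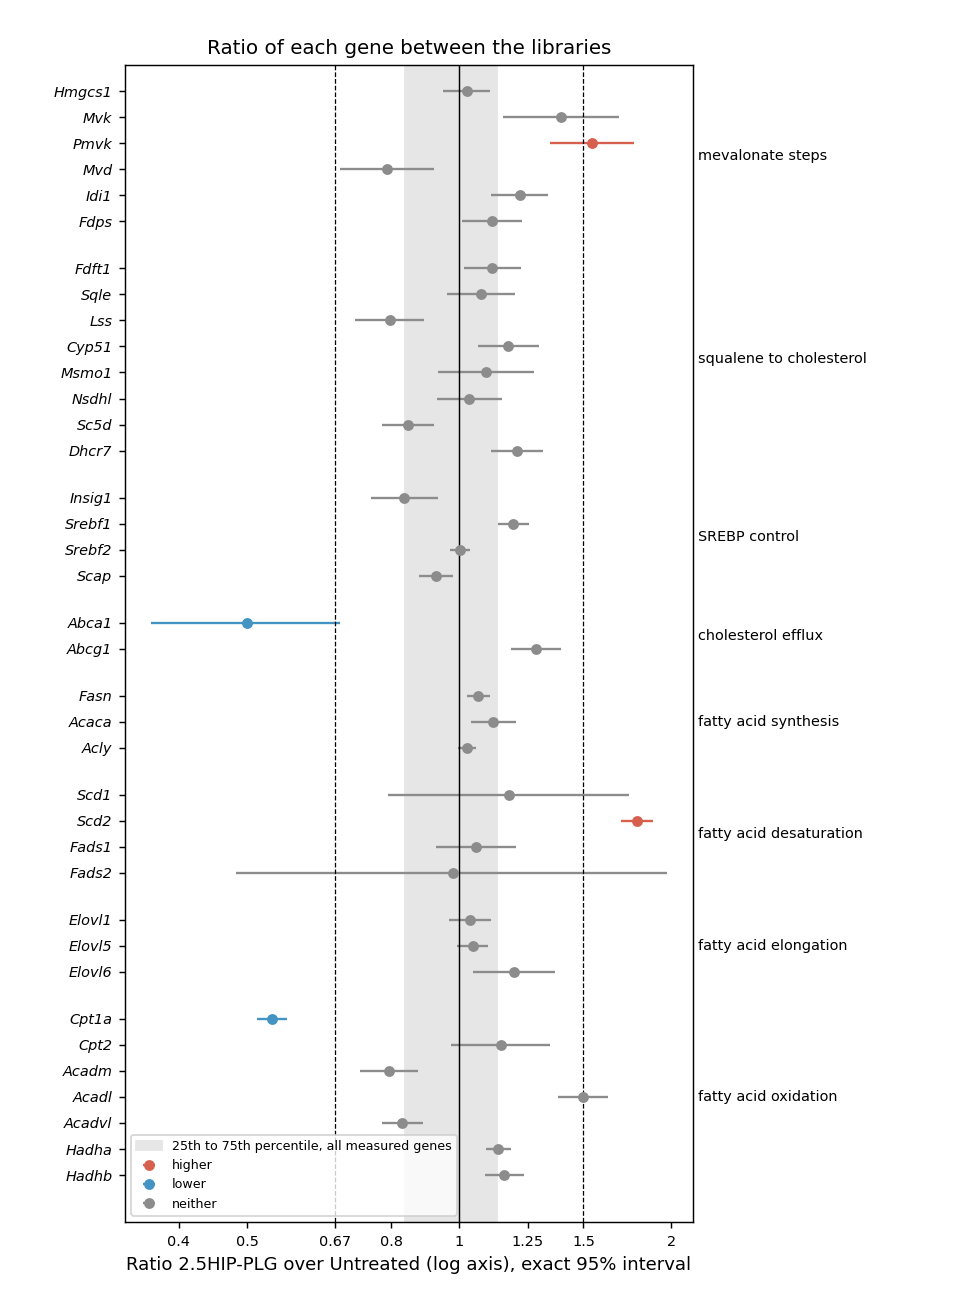
Ratio of scaled counts, 2.5HIP-PLG over untreated, on a log axis for each of the 37 genes, grouped by role, with the exact 95% interval; dashed lines stand at 0.667 and 1.5, and the grey band spans the 25th to 75th percentile of all measured genes. Cpt1a and Abca1 stand furthest to the left of the band, Scd2 and Pmvk furthest to the right, and Acadl lies on the upper dashed line. Other genes without a call also lie outside the band, such as Mvd and Lss to the left and Mvk and Abcg1 to the right.

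The libraries held 22580648 counts in the 2.5HIP-PLG group and 26036623 in the untreated group, so that 1 count was worth 0.0443 CPM with 2.5HIP-PLG, against 0.0384 untreated. CPM is the count scaled to a library total of 1000000. The 8 CD4 T cell markers Cd3e, Cd3d, Cd3g, Cd4, Cd2, Cd5, Lck and Trac were abundant, at 6938 CPM in sum in the 2.5HIP-PLG library, against 5740 in untreated cells, a ratio of 1.21 (1.20 to 1.22). Other cells were sparse. The 10 macrophage and monocyte markers summed to 17.8 CPM after 2.5HIP-PLG, against 12.6 untreated. The 4 neutrophil markers summed to 12.8 CPM with 2.5HIP-PLG, against 3.19 untreated. Mpo led with 237 counts in treated and 57 in untreated cells, and Elane had 31 in treated and 9 in untreated cells. S100a8 had 10 counts in treated and 8 in untreated cells, and S100a9 had 10 in treated and 9 in untreated cells. The intervals of those last ratios held 1. The 4 endothelial markers summed to 1.55 CPM in treated and 0.499 in untreated cells. The 5 B cell markers had 8 counts after 2.5HIP-PLG and 22 in untreated cells in sum, and the 5 adipocyte markers 0 after 2.5HIP-PLG and 1 in untreated cells. A list of 10 mitochondrially encoded genes had a summed ratio of 1.26 (1.25 to 1.26). All such genes took 2.75% of counts after 2.5HIP-PLG, against 2.29% untreated, and the ribosomal RNA gene CT010467.1 took 0.202% with 2.5HIP-PLG, against 1.06% untreated. What part these differences have in the ratios below was not tested.

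Levels between genes can be compared only per length. The length used takes in every annotated exon of a gene, used in these cells or not, so ranks depend partly on annotation. The scale here is CPM per kilobase of these merged exons. On that scale Acly, which makes cytosolic acetyl-CoA from citrate and so feeds both pathways, led in both libraries, with 66.8 in the 2.5HIP-PLG library, against 65.1 in untreated cells. Srebf2, the SREBP gene tied to cholesterol synthesis, followed with 43.2 in treated and 43.2 in untreated cells, and the elongase gene Elovl5 with 36.9 after 2.5HIP-PLG and 35.3 in untreated cells. Acadl ranked 4 of 37 after 2.5HIP-PLG, against 8 untreated, Scd2 ranked 5 after it and 11 untreated, and Cpt1a ranked 11 after it and 5 untreated. At the bottom stood Fads2, with 0.228 with 2.5HIP-PLG, against 0.233 untreated, Abca1, with 0.265 in treated and 0.530 in untreated cells, and Scd1, with 0.498 after 2.5HIP-PLG and 0.424 in untreated cells. Within each library the range of levels across the pathways was therefore far wider than any difference between the libraries.

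**Figure D2:**
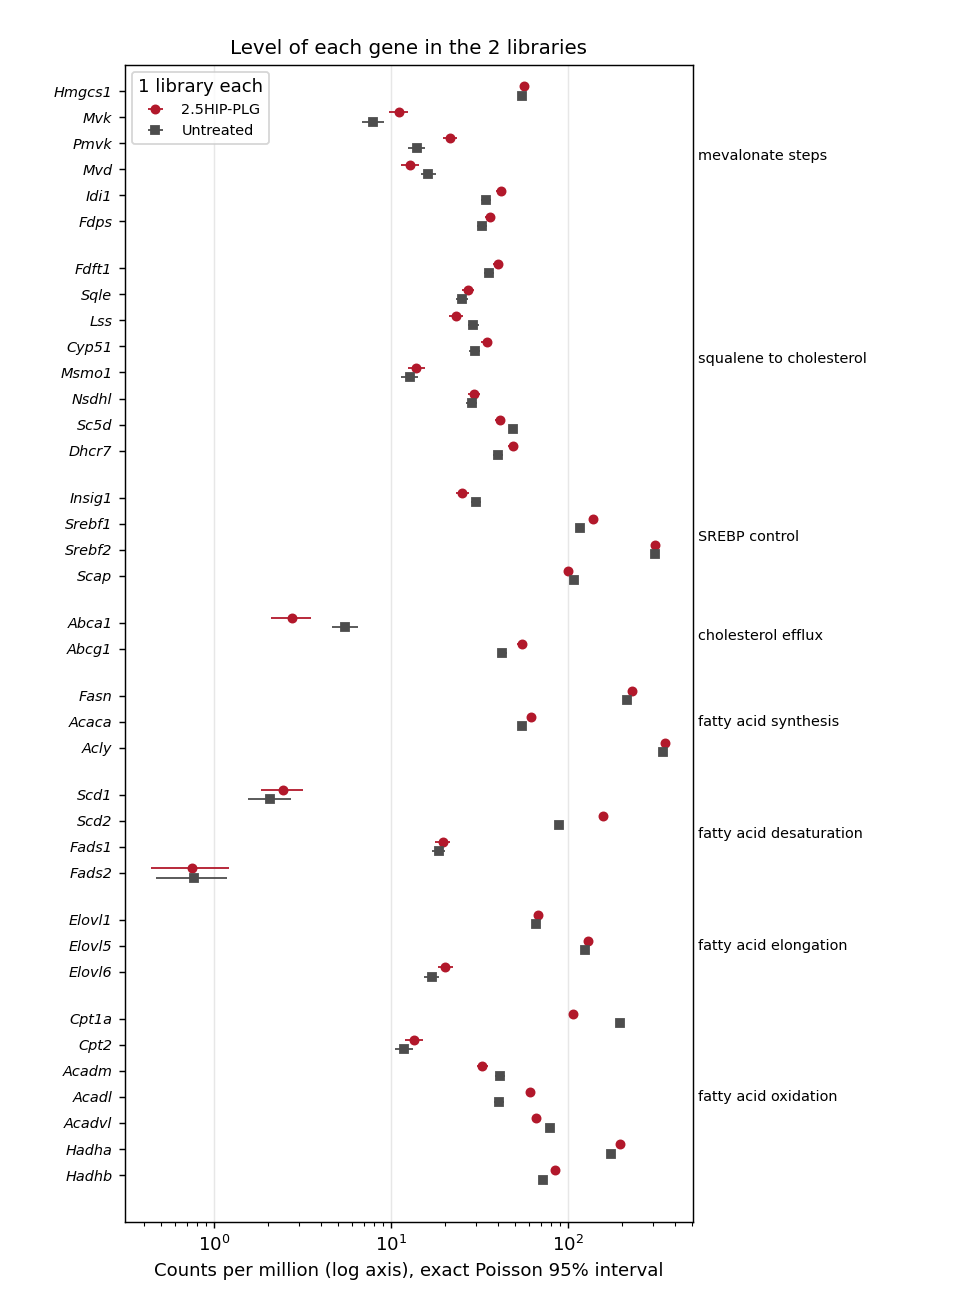
Level of each of the 37 genes in CPM on a log axis, with the exact Poisson 95% interval, as red circles for the 2.5HIP-PLG library and grey squares for the untreated library. Most pairs of points lie side by side, and Cpt1a (107 CPM after 2.5HIP-PLG, 197 CPM untreated), Abca1 (2.75 CPM after 2.5HIP-PLG, 5.49 CPM untreated) and Scd2 (158 CPM after 2.5HIP-PLG, 88.4 CPM untreated) are pulled apart.

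The RefSeq promoter table of build GRCm38.p6 held 30 of the 37 genes. Fdps, Fdft1, Sqle, Abcg1, Scd1, Scd2 and Fads1 are named only. The 250 bases before each annotated start were searched on both strands for 4 short motifs, with a gene counted if any of its starts had a match. The sterol regulatory element core, TCACNCCAC, which SREBPs bind, occurred in 1 of the 30 genes, Hmgcs1, and in 1.22% of 27025 genes in the table. The NF-Y box CCAAT, read by the factor that works beside SREBPs at many sterol genes, occurred in 18 of the 30 genes (60.0%) and in 37.5% of all genes. It was present in 11 of the 11 cholesterol synthesis genes in the table, in 3 of 4 SREBP control genes, in 3 of 7 genes of fatty acid synthesis, desaturation and elongation, and in 1 of 7 oxidation genes, Cpt1a. The E-box CACGTG occurred in 6 of 30 genes (20%), against 6.86% of all genes, and the GC box GGGCGG in 23 of 30 (76.7%), against 35.4%. Matches overlapped in Elovl1, between a GC box and an NF-Y box, and in Fasn, between a pair of NF-Y boxes. A match describes the letters only, and annotated exons were not removed from the windows. Such exons covered every NF-Y box of Cyp51, Dhcr7, Idi1 and Msmo1. They also covered 243 of the 250 bases of the Fads2 window, 182 of Hadha, 165 of Hadhb and 129 of Elovl6. The Acaca window (chromosome 11, 84195188 to 84195437) lies inside its GENCODE gene model, which begins at base 84129672. The windows of the roles are therefore not alike in how much sequence outside exons and gene models they hold.

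Promoter stretches are shown for Hmgcs1, as the only gene with the sterol element core, and for the 3 called genes in the table, Pmvk, Abca1 and Cpt1a. Each ends at the annotated start, except that of Cpt1a, from which the last 16 bases were left out because an annotated exon covers them and with them part of its NF-Y box. Capitals mark the 4 motifs on either strand, and the sequences read 5′ to 3′ on the strand of the gene, with coordinates in GRCm38. In Hmgcs1 the sterol element core lies 137 to 129 bases before the start, in the midst of 3 NF-Y boxes and 2 GC boxes. In Abca1 an E-box lies 147 to 142 bases before the start, beside 2 GC boxes. Pmvk has another annotated start, not shown, whose window held none of the 4 motifs. The Cpt1a stretch lies inside its GENCODE gene model, which begins at base 3322334.
Hmgcs1 (chr13:119690101-119690350, plus strand): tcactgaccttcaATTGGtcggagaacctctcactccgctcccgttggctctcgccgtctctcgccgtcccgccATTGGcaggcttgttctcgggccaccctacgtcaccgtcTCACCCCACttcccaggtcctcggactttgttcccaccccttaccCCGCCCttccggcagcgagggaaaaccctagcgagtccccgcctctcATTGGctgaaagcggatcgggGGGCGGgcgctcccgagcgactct
Pmvk (chr3:89454291-89454540, plus strand): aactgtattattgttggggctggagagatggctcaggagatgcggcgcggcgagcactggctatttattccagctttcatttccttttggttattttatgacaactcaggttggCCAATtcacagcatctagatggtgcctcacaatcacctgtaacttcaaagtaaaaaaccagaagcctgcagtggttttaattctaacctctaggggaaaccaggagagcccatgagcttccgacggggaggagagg
Abca1 (chr4:53159896-53160145, minus strand): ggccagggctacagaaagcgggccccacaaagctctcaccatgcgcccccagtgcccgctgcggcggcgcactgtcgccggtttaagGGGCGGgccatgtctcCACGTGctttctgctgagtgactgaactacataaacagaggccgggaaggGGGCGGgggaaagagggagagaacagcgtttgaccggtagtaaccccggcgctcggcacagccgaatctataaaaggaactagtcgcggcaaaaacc
Cpt1a (chr19:3323051-3323284, plus strand): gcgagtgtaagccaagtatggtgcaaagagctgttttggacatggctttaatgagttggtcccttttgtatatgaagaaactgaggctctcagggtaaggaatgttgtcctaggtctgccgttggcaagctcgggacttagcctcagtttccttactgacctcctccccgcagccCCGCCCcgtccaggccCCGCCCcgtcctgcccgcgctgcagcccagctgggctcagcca

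The mevalonate steps turn acetyl-CoA into farnesyl diphosphate. Their 6 genes summed to 180 CPM in the 2.5HIP-PLG library, against 160 CPM in untreated cells, a ratio of 1.12 (1.08 to 1.17). Of the genes 1 was called higher and 0 lower, and the median log2 ratio was 0.22. Pmvk, which encodes phosphomevalonate kinase (chromosome 3, 89454541 to 89469013), had 484 counts (21.4 CPM) after 2.5HIP-PLG, against 362 counts (13.9 CPM) untreated. Its ratio was 1.54 (1.34 to 1.77), so the call is close to the threshold. Mvk, the mevalonate kinase of the step just before, had 249 counts with 2.5HIP-PLG, against 206 untreated, a ratio of 1.39 (1.15 to 1.68). Mvd, the decarboxylase of the step after, went the other way, with 289 counts in treated and 422 in untreated cells and a ratio of 0.790 (0.678 to 0.919). Hmgcs1, the HMG-CoA synthase at the entry, had the most counts of the 6 and was nearly equal in the libraries, at 56.2 CPM with 2.5HIP-PLG, against 54.9 untreated (1.02, 0.949 to 1.11). Idi1, the isomerase, had 41.9 CPM in treated and 34.4 in untreated cells (1.22, 1.11 to 1.34), and Fdps, the farnesyl diphosphate synthase, 36.2 CPM after 2.5HIP-PLG and 32.5 in untreated cells (1.11, 1.01 to 1.23). The consecutive enzymes therefore did not shift by a common factor.

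From squalene to cholesterol the 8 genes were closer still, at 258 CPM in sum in the 2.5HIP-PLG library, against 250 CPM in untreated cells (1.03, 0.996 to 1.07). None was called, and the median log2 ratio was 0.11. Dhcr7, the last reductase of the route, had 1094 counts with 2.5HIP-PLG, against 1045 untreated (1.21, 1.11 to 1.32), and Cyp51, the lanosterol demethylase, had 783 in treated and 769 in untreated cells (1.17, 1.06 to 1.299). Fdft1, the squalene synthase, had 901 counts after 2.5HIP-PLG and 933 in untreated cells (1.11, 1.01 to 1.22). Lss, which closes the sterol rings, had 524 counts after 2.5HIP-PLG, against 758 untreated (0.797, 0.712 to 0.892), and Sc5d, a desaturase of the late steps, had 929 with 2.5HIP-PLG, against 1267 untreated (0.845, 0.776 to 0.921). The interval held 1 for Sqle, the squalene epoxidase (612 counts after 2.5HIP-PLG and 657 in untreated cells), for the demethylation enzyme gene Nsdhl (666 in treated and 743 in untreated cells) and for the methyl oxidase gene Msmo1 (313 after 2.5HIP-PLG and 331 in untreated cells). Those last 3 had ratios of 1.07, 1.03 and 1.09. Lss and Sc5d were thus the only members of this stretch whose intervals lay below 1.

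None of the 4 genes of SREBP control was called, and Srebf2 and Srebf1 were among the most abundant genes of the pathways. Srebf2 had 7010 counts in the 2.5HIP-PLG library, against 8072 in untreated cells, or 310.4 CPM with 2.5HIP-PLG, against 310.0 untreated, a ratio of 1.00 (0.970 to 1.03). Srebf1, the SREBP gene tied more to fatty acid synthesis, had 139 CPM with 2.5HIP-PLG, against 116 untreated (1.19, 1.13 to 1.25). The quotient of Srebf1 to Srebf2 counts was 0.447 in treated and 0.375 in untreated cells, a ratio of 1.19 (1.12 to 1.27) that needs no scaling between libraries. Scap had 99.3 CPM after 2.5HIP-PLG and 107 in untreated cells (0.927, 0.876 to 0.980). Insig1, which holds the SCAP complex back and is itself a target of SREBPs, had 569 counts with 2.5HIP-PLG, against 785 untreated (0.836, 0.749 to 0.932). Srebf1 was thus slightly higher, Srebf2 level (its ratio was 0.996 without the 20 most abundant genes in the totals), and the genes of their escort and anchor slightly lower after 2.5HIP-PLG. The exons of Srebf1 overlap those of Rai1, and the exons of Fdft1, Cyp51 and Elovl1 overlap those of Ctsb, Akap9 and Cdc20, so their counts are less certain where strand was not used.

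The pair of cholesterol efflux genes parted in opposite directions. Abca1 (chromosome 4, 53030787 to 53159895), which loads cholesterol onto lipid-poor apolipoprotein, had 62 counts (2.75 CPM, Poisson interval 2.11 to 3.52) in the 2.5HIP-PLG library, against 143 counts (5.49 CPM, 4.63 to 6.47) in untreated cells. Its ratio was 0.4999 (0.365 to 0.678), and the 2 Poisson intervals did not overlap. Abcg1, which passes cholesterol to high-density lipoprotein, had 1230 counts in treated and 1104 in untreated cells (54.5 CPM, against 42.4 CPM untreated), a ratio of 1.28 (1.18 to 1.39), short of the call. Abca1 made up 4.799% of the counts of this pair after 2.5HIP-PLG (exact binomial interval 3.70 to 6.11) and 11.5% without treatment (9.75 to 13.4). The quotient of Abcg1 to Abca1 was 19.8 after 2.5HIP-PLG and 7.72 in untreated cells, a ratio of 2.57 (1.87 to 3.56). Since Abcg1 dominates, the summed efflux counts had a ratio of 1.19 (1.10 to 1.29) although its other member was lower. Macrophages also express Abca1. The macrophage and monocyte markers were mixed, with a summed ratio of 1.41 (1.21 to 1.63). Of 7 measured markers 3 were called higher (Csf1r, Lyz2 and C1qa) and 0 lower. The counts of Csf1r and Lyz2 were not whole. The exons of Csf1r also overlap Hmgxb3 on the other strand, which had 1035 counts after 2.5HIP-PLG and 1318 in untreated cells. The ratio was below 1 for Adgre1 (19 counts after 2.5HIP-PLG and 33 in untreated cells; 0.664, 0.357 to 1.20) and C1qc (32 with 2.5HIP-PLG, against 42 untreated; 0.879, 0.537 to 1.43). Mertk, too scarce for the count filter, had 2 counts in treated and 14 in untreated cells. Of the list Lyz2 (101 counts after 2.5HIP-PLG and 47 in untreated cells), Cd68 (107 with 2.5HIP-PLG, against 96 untreated) and C1qb (54 in treated and 44 in untreated cells) had the most counts, and Fcgr1 was at 0 after 2.5HIP-PLG, against 3 counts untreated. Their part in the Abca1 ratio was not tested.

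The 3 fatty acid synthesis genes had ratios close to 1. Acly had 7959 counts in the 2.5HIP-PLG library, against 8951 in untreated cells (1.03, 0.995 to 1.06). Fasn, the fatty acid synthase, had 229 CPM after 2.5HIP-PLG and 216 in untreated cells (1.06, 1.02 to 1.10), and Acaca, the acetyl-CoA carboxylase that makes malonyl-CoA, had 61.4 CPM with 2.5HIP-PLG, against 55.0 untreated (1.12, 1.04 to 1.20). Their sum had a ratio of 1.05 (1.02 to 1.07), with 0 of 3 called. The elongases were alike in this. Elovl5 and Elovl1 had ratios of 1.05 (0.994 to 1.10) and 1.03 (0.965 to 1.11). Elovl6, which acts on palmitate, had 457 counts in treated and 441 in untreated cells (1.19, 1.05 to 1.37).

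Desaturation differed, and through a single gene. Scd2, a stearoyl-CoA desaturase that makes monounsaturated fatty acids (chromosome 19, 44293674 to 44306864), had 3568 counts (158 CPM, Poisson interval 153 to 163) in the 2.5HIP-PLG library, against 2302 counts (88.4 CPM, 84.8 to 92.1) in untreated cells. Its ratio of 1.79 (1.70 to 1.88) was the highest of the 37 genes, and the Poisson intervals lay far apart. Scd1, its paralog 87590 bases away, had 55 counts after 2.5HIP-PLG and 54 in untreated cells (1.17, 0.792 to 1.74). The expected counts of both were not whole, and which loci shared the fractional reads was not tested. Scd3 had 7 counts with 2.5HIP-PLG, against 0 untreated, and Scd4 had 4 with 2.5HIP-PLG, against 6 untreated, and Scd1 to Scd4 together had a ratio of 1.77 (1.68 to 1.87). Scd2 made up 87.4% of desaturase counts after 2.5HIP-PLG (86.4 to 88.4) and 80.5% without treatment (79.0 to 82.0). The polyunsaturated fatty acid desaturases did not differ detectably at this depth, with Fads1 at 441 counts in treated and 482 in untreated cells (1.05, 0.925 to 1.20) and Fads2 at 17 after 2.5HIP-PLG and 20 in untreated cells (0.980, 0.482 to 1.97), where the interval is wide.

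Of the 7 fatty acid oxidation genes only Cpt1a was called under column-total scaling. Cpt1a, the outer membrane carnitine palmitoyltransferase (chromosome 19, 3322334 to 3385733), had 2409 counts (107 CPM, Poisson interval 102 to 111) in the 2.5HIP-PLG library, against 5127 counts (197 CPM, 192 to 202) in untreated cells. Its ratio was 0.542 (0.516 to 0.569), 1.85-fold lower, with whole counts and no other gene sharing its exons. Cpt2, the inner membrane partner that releases the acyl group again, had 305 counts with 2.5HIP-PLG, against 307 untreated (1.15, 0.974 to 1.35). The quotient of Cpt1a to Cpt2 was accordingly 7.90 in treated and 16.7 in untreated cells, a ratio of 0.473 (0.399 to 0.560).

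The dehydrogenases that start each round of oxidation did not move together. Acadl, the long-chain enzyme, had 1375 counts (60.9 CPM) after 2.5HIP-PLG, against 1059 counts (40.7 CPM) untreated, a ratio of 1.497 (1.38 to 1.62) that fell just under the call; it was called higher at 1.51 under both TMM and median-of-ratios scaling. Acadm, the medium-chain enzyme, had 738 counts after 2.5HIP-PLG and 1072 in untreated cells (0.794, 0.722 to 0.873). Acadvl, the very long-chain enzyme, had 1486 with 2.5HIP-PLG, against 2065 untreated (0.830, 0.776 to 0.887), with counts that were not whole and exons that overlap Dvl2 on the other strand. The quotient of Acadl to Acadm was 1.86 in the 2.5HIP-PLG library, against 0.988 in untreated cells, a ratio of 1.89 (1.66 to 2.14). Hadha and Hadhb encode the alpha and beta subunits of the trifunctional protein, which completes the round. Their gene models lie 85 bases apart on chromosome 5 and are transcribed away from each other. Hadha had 197 CPM in treated and 173 in untreated cells (1.14, 1.09 to 1.18) and Hadhb 83.7 CPM after 2.5HIP-PLG and 72.2 in untreated cells (1.16, 1.09 to 1.24), and their quotient was 2.35 with 2.5HIP-PLG, against 2.40 untreated, a ratio of 0.980 (0.908 to 1.06). The neighbouring pair thus kept its proportion while Cpt1a, Acadl and Acadm did not.

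Over the 7 oxidation genes 1 was called lower, 0 higher and 6 were neither. The summed counts had a ratio of 0.910 (0.889 to 0.932), yet the median log2 ratio was 0.18, opposite in sign, because Cpt1a carries much of the sum. It made up 19.0% of oxidation counts after 2.5HIP-PLG (exact binomial interval 18.4 to 19.7) and 32.0% without treatment (31.3 to 32.7).

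Synthesis was then set against efflux and oxidation within each library, where scaling between libraries cancels. The 24 synthesis genes had 33403 counts in the 2.5HIP-PLG library, against 34904 in untreated cells, or 1479 CPM in treated and 1341 in untreated cells. Per count of oxidation genes there were 2.64 counts of synthesis genes after 2.5HIP-PLG, against 2.18 untreated, a ratio of 1.21 (1.18 to 1.25). Without Cpt1a the same ratio was 1.02 (0.987 to 1.05), so the shift rests on that gene. Per count of efflux genes there were 25.85 counts of synthesis genes after 2.5HIP-PLG, against 27.99 untreated. That ratio was 0.924 (0.853 to 1.00), and its interval just held 1. For the cholesterol synthesis genes alone the quotient was 7.64 after 2.5HIP-PLG, against 8.55 untreated. The ratio was then 0.894 (0.822 to 0.971), with an interval below 1. With all synthesis genes set against Abca1 alone the ratio was 2.21 (1.63 to 3.02), the opposite direction, because Abcg1 was higher and Abca1 lower. Neither the oxidation nor the efflux comparison therefore describes all genes of a role.

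**Figure D3:**
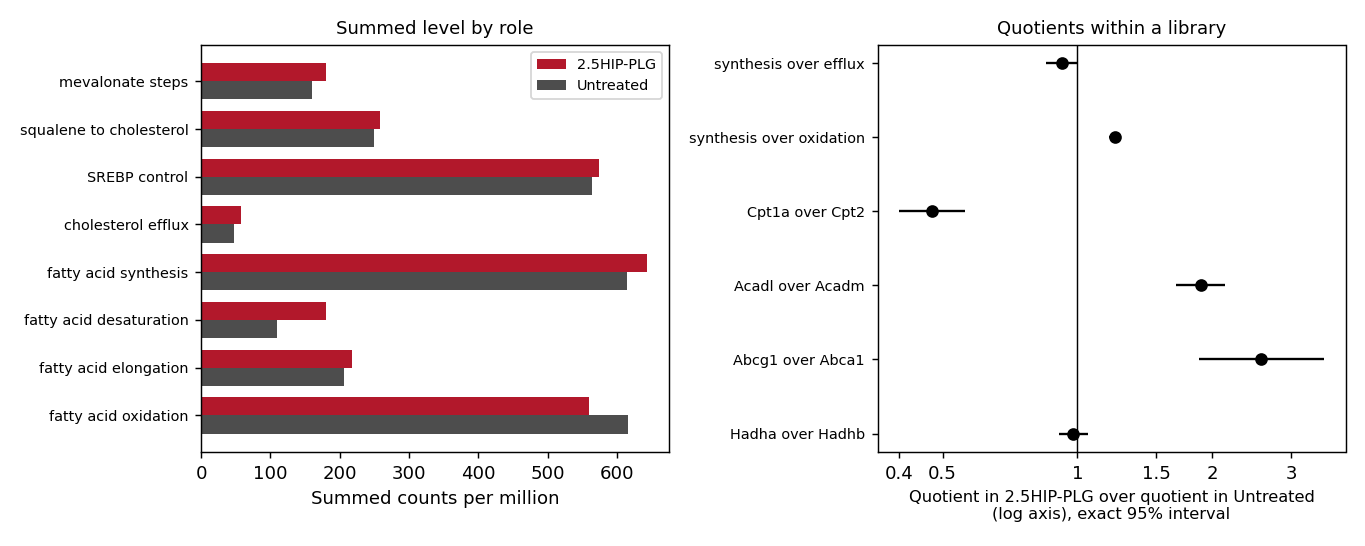
Left, summed CPM of the genes of each role, as red bars for the 2.5HIP-PLG library and grey bars for the untreated library; right, on a log axis, the quotient of counts within the 2.5HIP-PLG library over the same quotient within the untreated library, with its exact 95% interval. Desaturation is higher (181 CPM after 2.5HIP-PLG, 110 CPM untreated) and oxidation lower (560 CPM after 2.5HIP-PLG, 616 CPM untreated), Hadha over Hadhb sits near 1, and Cpt1a over Cpt2 and Abcg1 over Abca1 lie on opposite sides.

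A further 92 genes of the same pathways were listed by role, and 77 of them passed the count filter. The calls were 4 higher and 7 lower, and 66 genes had neither. The median log2 ratio was -0.06. Over all measured genes 5.15% were called higher and 9.7% lower, and the calls of these lists, too, are read as single genes. Among 22 other oxidation genes 3 were called higher and 0 lower, with a median of -0.01. Decr1, the dienoyl-CoA reductase needed for polyunsaturated fatty acids, had 561 counts after 2.5HIP-PLG, against 247 untreated, a ratio of 2.62 (2.25 to 3.05). Eci1, an isomerase needed for unsaturated fatty acids, had 502 counts in treated and 355 in untreated cells (1.63, 1.42 to 1.87). Cpt1b had 64 after 2.5HIP-PLG and 45 in untreated cells (1.64, 1.10 to 2.46), but it shares exons with Gm44502 on the same strand, which had 22 counts after 2.5HIP-PLG and 89 in untreated cells. Slc25a20, the carnitine carrier that works between CPT1A and CPT2 and was singled out after its value was seen, had 548 counts with 2.5HIP-PLG, against 930 untreated, a ratio of 0.679 (0.610 to 0.756) just short of a call. Eci2, a second enoyl-CoA isomerase, also looked up afterwards, had 933 counts with 2.5HIP-PLG, against 1093 untreated (0.984, 0.901 to 1.08), so it did not share the call of Eci1.

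Among 15 measured genes of other fatty acid synthesis and activation, 3 were called lower and 0 higher, with a median log2 ratio of -0.09. Acss2, which makes acetyl-CoA from acetate, had 189 counts after 2.5HIP-PLG, against 631 untreated, a ratio of 0.345 (0.292 to 0.407). Its counts were not whole and its exons overlap Gss on the other strand, which had 187 counts in treated and 325 in untreated cells. Elovl7 (17 counts after 2.5HIP-PLG and 54 in untreated cells; 0.363, 0.197 to 0.636) and Fads6 (9 with 2.5HIP-PLG, against 24 untreated; 0.432, 0.177 to 0.964) were called lower from few reads. Of 7 other sterol synthesis enzymes 1 was called lower and 0 higher, with a median of -0.03. That gene was Acat2, a thiolase at the head of the route, with 525 counts in treated and 1364 in untreated cells (0.444, 0.401 to 0.491). Its counts were not whole, and its near copy Acat3 had 3 counts with 2.5HIP-PLG, against 79 untreated, lower too. Tm7sf2, a sterol reductase, had an interval that held 1 (0.944, 0.861 to 1.04). Its counts, too, were fractional before rounding. It shares exons with Vps51 on the same strand, which had 355 counts after 2.5HIP-PLG and 611 in untreated cells.

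Of 11 measured genes of SREBP processing and sterol transport 1 was called lower and 0 higher, with a median of -0.05. Lrp8, a lipoprotein receptor, had 392 counts after 2.5HIP-PLG, against 829 untreated (0.545, 0.482 to 0.616). Npc1, which lets cholesterol out of lysosomes, had a ratio of 0.797 (0.744 to 0.853), with exons that overlap Rmc1, and Stard4, a sterol carrier, 1.23 (1.14 to 1.33). In a list of liver X receptors, partners, targets and Abca7, with 8 genes measured, 1 was called higher and 1 lower, with a median of -0.17. Rxra, the retinoid receptor that pairs with liver X receptors and others, had 590 counts after 2.5HIP-PLG and 1533 in untreated cells (0.444, 0.403 to 0.488). The call of Abcg4 rested on 17 counts with 2.5HIP-PLG, against 8 untreated (2.45, 1.00 to 6.56) and was lost under upper quartile scaling. Mylip, a target that marks lipoprotein receptors for degradation, had 663 counts in treated and 1037 in untreated cells (0.737, 0.668 to 0.813). Abca7, a relative of Abca1 singled out after its value was seen, had 4304 counts after 2.5HIP-PLG and 6717 in untreated cells (0.739, 0.711 to 0.768).

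Fatty acid uptake and lipid droplet genes had 1 of 11 called lower and 0 higher, with a median of -0.14. Mgll, the monoglyceride lipase, had 69 counts after 2.5HIP-PLG, against 195 untreated (0.408, 0.305 to 0.540). Fabp5, a fatty acid carrier, had 297 counts with 2.5HIP-PLG, against 230 untreated (1.49, 1.25 to 1.78), and Hilpda, which restrains droplet lipolysis, 130 in treated and 196 in untreated cells (0.765, 0.608 to 0.959). Of the peroxisome proliferator-activated receptor list 3 of 5 genes were measured and 0 called. Ppard had 649 counts after 2.5HIP-PLG and 787 in untreated cells (0.951, 0.856 to 1.06), Ppargc1b 124 with 2.5HIP-PLG, against 184 untreated (0.777, 0.614 to 0.981) and Pparg 21 in treated and 14 in untreated cells (1.73, 0.839 to 3.68).

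**Figure D4:**
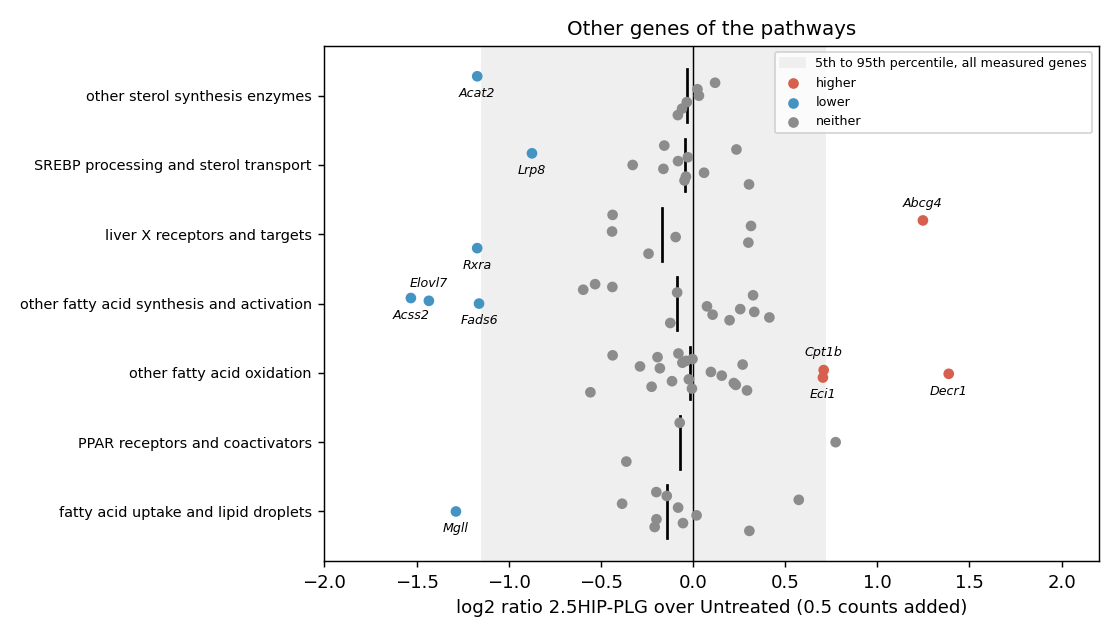
Log2 ratio, 2.5HIP-PLG over untreated, of each of the 77 measured genes from 7 further lists, with called genes coloured and named, a black line at each list's median, and a grey band from the 5th to the 95th percentile of all measured genes. Decr1 and Abcg4, and Pparg without a call, lie to the right of the band, and Acat2, Rxra, Acss2, Elovl7, Fads6 and Mgll lie to its left.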

How the data were processed

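RNA was measured in 2 libraries, 1 per group. Groups follow the labelled treatment, because an injection is mentioned in the protocols of each sample alike. Per the submitters' processing notes, STAR, RSEM 1.3.1 and the build GRCm38 were used; no annotation, read filter or strand setting is given in the sources used here. The deposited values are expected counts per gene, not scaled between libraries. They were rounded to whole numbers. Not whole were 11.1% of rows after 2.5HIP-PLG, against 11.8% untreated, and 10 of the 37 genes in at least 1 library. Overlapping genes are uncertain, since strand use is unknown.

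Counts were scaled by column total. Ratios have exact conditional binomial (Clopper-Pearson) 95% intervals, and levels have exact Poisson ones; quotients have exact conditional odds ratio intervals. No molecular identifiers are described, so intervals cover counting error only. Medians use log2 ratios with 0.5 counts added to each count. Calls need a count sum of at least 20. Python 3.11.15 with scipy 1.17.1 was used, and scaling alternatives came from edgeR 4.0.16 and DESeq2 1.42.0 in R 4.3.3. The ratio and interval code was tested on simulated data. Gene models, exon overlaps and lengths came from GENCODE M21 on GRCm38, and promoters from RefSeq.

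The genes, lists and rules were chosen with earlier results of these data known. All 37 genes are named; of each further list, every called gene and the 3 with the largest absolute log2 ratio; of each marker list, its sum and its 3 most abundant genes, of which those of the sparse cell types are mostly given by the sum alone. The quotients of single gene pairs, the ratio without Cpt1a and the sum of Scd1 to Scd4 were chosen after seeing the data. So were the quotient of cholesterol synthesis over efflux, the restriction to whole counts and the scaling without ribosomal RNA and mitochondrial genes. A gene that the naming rule picks is not reported here. Protein sequences were not used here.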

Additional observations from a re-analysis of the deposited data

How the results depend on the processing

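No paired analysis was possible because each group has 1 library. The 4 planned scaling alternatives moved every log2 ratio by between -0.02 and 0.01. Abca1 and Cpt1a were called lower, and Pmvk and Scd2 higher, under all 5 scalings tried beside the column total, with unrounded counts, with count minimums of 10, 100 and none, and with a 99% interval; TMM and median-of-ratios scaling added Acadl. At a ratio of 2 there were 0 genes called higher and 1 called lower, Abca1. Among genes with whole counts 1 was called higher, since Scd2 is not among them. Over all measured genes a ratio of 2 left 387 higher and 808 lower, and a count sum of at least 100 left 473 and 748, against 716 and 1348.

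Without the gene of a role that has the most counts (not scaled by length), the ratio of sums was 1.17 for the mevalonate steps (without Hmgcs1), 1.08 from squalene to cholesterol (without Sc5d), 1.07 for fatty acid synthesis (without Acly), 1.06 for desaturation (without Scd2) and 0.822 for oxidation (without Hadha); for efflux without Abcg1 it was 0.4999, reversed in direction. Synthesis over efflux then became 2.21, and synthesis over oxidation 1.34 without Hadha and 1.02 without Cpt1a. In the further lists, 0 liver X receptor genes were called higher under upper quartile scaling, under totals without the 20 most abundant genes or without ribosomal RNA and mitochondrial genes, and at a count sum of at least 100, where the list's median log2 ratio was -0.34. That minimum left 1 gene of other fatty acid synthesis and activation called lower, with a median of 0.11, as scarce genes dropped out. TMM and median-of-ratios scaling each gave 1 fatty acid uptake gene called higher. Depth limits Fads2, Scd1 and Abca1 most, and differences between mice or library preparations cannot be seen with 1 library per group.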
